A study of Mus musculus with 28 samples.

Results

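H3K27ac peaks near 10 genes of the receptor tyrosine kinase systems were followed while NMuMG cells, an epithelial line from the normal mouse mammary gland, were exposed to TGF-β and to an inhibitor of ERK signalling. The genes were the receptors Fgfr1, Fgfr2, Fgfr3, Pdgfra, Pdgfrb, Axl, Met and Ddr1 and the ligands Pdgfa and Pdgfb. A peak was assigned to one of them when its summit lay within 100 kb of an annotated start site of the gene and no start site of another protein-coding gene was nearer. By this rule 1312 of the 893719 peaks in 15 peak lists belonged to the 10 genes, between 70 and 103 in a library. Where the peaks of different libraries overlapped they were merged, which gave 128 regions for these genes among 89050 regions in all. Of the 128 regions, 35 were found in all 15 libraries and 33 in 1 library only.

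The 15 libraries were H3K27ac ChIP-seq libraries from a subclone of NMuMG, NMuMG/E9, with 3 in each of 5 conditions. The 0h cells were labelled untreated. The 4h and 24h cells received TGF-β at 2 ng/ml for 4 or 24 h, and the ERKi 4h and ERKi 24h cells received the same TGF-β after 30 min with 25 µM UO126, an inhibitor of the MEK-ERK cascade. The study's methods describe the libraries without the inhibitor as the condition with its solvent, DMSO. All cells came from 1 subclone, and nothing in the labels says that replicates were separate cultures, so every p-value measures the spread between these libraries. No condition had the inhibitor without TGF-β.

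Libraries held between 50445 and 69180 peaks, covering 30.8 to 44.8 Mb. Read totals are not in the peak lists, so depth is unknown. Of 9 epithelial genes, Cdh1, Krt8, Krt18 and Krt19 carried a peak within 2500 bp of a start site in every library, whereas Epcam, Cldn7 and Esrp1 carried none in any library, Cldn3 carried one in 1 library and Cldn4 in 11. The rank of such a peak by pileup among all peaks of its library was summed as a percentile over the 9 genes, with 0 for a gene without a peak. The sum thus also depends on whether Cldn3 and Cldn4 held a peak. It moved with time, from 370 to 376 at 0h, 413 to 432 at 4h and 450 to 468 at 24h, against 375 to 438 at ERKi 4h and 457 to 509 at ERKi 24h. Its part in the results was not tested. Of 9 genes that mark leukocytes, endothelium, muscle, liver, neurons or neural crest, 0 carried a peak there in any library. The number in the peak names was out of sequence in 1 of 15 libraries, ERKi 4h replicate 1.

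Receptor tyrosine kinases are membrane proteins that dimerise on binding a ligand and phosphorylate themselves, and the phosphorylated tails recruit adaptors that switch on the RAS-ERK and PI3K cascades. Epithelial cells typically carry FGFR2 in a splice form that answers to ligands from the stroma, MET, the receptor of hepatocyte growth factor, and DDR1, a receptor of collagen. FGFR1, the PDGF receptors and AXL, the receptor of GAS6, are typical of mesenchymal cells, and a move from the first set to the second is known from many models of epithelial to mesenchymal transition. Acetylation of lysine 27 of histone H3 marks active promoters and enhancers. The mark alone is described, the expression of the genes was not analysed here, and a distal region is linked to a gene by distance alone. In such bulk samples, fewer cells with the mark and less of the mark per cell cannot be told apart.

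Of the regions described below, 6 are shown as 201 bases of the plus strand of the mm9 assembly around the highest summit. They were chosen because they carried the gains and losses on which the account of Pdgfa, Pdgfra, Fgfr1, Axl and Met turns. Capitals mark matches, on either strand, to any of 8 short motifs, namely TGANTCA of AP-1, CCGGAA of ETS factors, TGTGGT of RUNX factors, CAGACA of SMAD proteins, CAGGTG of E-box factors, ACATTCC of TEAD factors, TGTTTAC of FOXA factors and AACNNGTT of GRHL factors.
Pdgfa, 17.2 kb upstream (chr5:139490414-139490614): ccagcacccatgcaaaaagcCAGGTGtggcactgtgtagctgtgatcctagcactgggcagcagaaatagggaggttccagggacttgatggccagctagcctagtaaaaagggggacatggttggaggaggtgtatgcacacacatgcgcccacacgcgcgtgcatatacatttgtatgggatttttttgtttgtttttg
Pdgfa, 18.4 kb upstream (chr5:139491597-139491797): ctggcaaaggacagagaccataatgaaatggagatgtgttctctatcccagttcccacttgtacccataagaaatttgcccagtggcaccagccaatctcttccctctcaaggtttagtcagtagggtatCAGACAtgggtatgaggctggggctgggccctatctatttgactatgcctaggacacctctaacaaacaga
Pdgfra, 13.9 kb downstream of the start (chr5:75562081-75562281): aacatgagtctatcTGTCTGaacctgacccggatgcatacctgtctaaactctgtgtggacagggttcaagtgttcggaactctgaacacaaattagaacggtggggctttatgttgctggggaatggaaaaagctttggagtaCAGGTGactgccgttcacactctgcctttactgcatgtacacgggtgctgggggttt
Fgfr1, 72.9 kb upstream (chr8:26551108-26551308): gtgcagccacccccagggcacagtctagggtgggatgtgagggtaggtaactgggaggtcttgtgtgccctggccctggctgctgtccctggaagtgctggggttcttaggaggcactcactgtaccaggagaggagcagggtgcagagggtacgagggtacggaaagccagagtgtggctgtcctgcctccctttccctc
Axl, 5.0 kb downstream of the start (chr7:26568632-26568832): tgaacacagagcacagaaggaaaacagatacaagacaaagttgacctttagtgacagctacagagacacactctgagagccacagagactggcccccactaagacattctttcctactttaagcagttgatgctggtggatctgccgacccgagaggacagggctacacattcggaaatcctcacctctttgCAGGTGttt
Met, 53.5 kb upstream (chr6:17360237-17360437): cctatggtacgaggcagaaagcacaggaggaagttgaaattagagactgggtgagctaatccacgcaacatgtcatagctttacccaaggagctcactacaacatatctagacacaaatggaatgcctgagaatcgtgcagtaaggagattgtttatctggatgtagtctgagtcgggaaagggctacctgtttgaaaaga

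The CAGGTG E-box stood in the Pdgfa region 17.2 kb upstream, in the Axl region and in the Pdgfra region, and the SMAD letters stood in the Pdgfa region 18.4 kb upstream and in the Pdgfra region. The Fgfr1 and Met windows held none of the 8 motifs. Over the same window the E-box was present in 19 of the 128 regions, 14.8%, and in 15.5% of all 89050 regions, and the SMAD letters in 26 of 128, 20.3%, and in 19.5% of all. The AP-1 letters were in 5 regions, 3.91%, against 5.87% of all, and the ETS letters in 4, 3.12%, against 3.62%. RUNX letters were in 16 regions, 12.5% against 14% of all, TEAD letters in 6, 4.69% against 2.88%, FOXA letters in 3, 2.34% against 2.71%, and GRHL letters in 0 against 2.82%. These shares describe letters in a window and not sites bound by a factor.

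Acetylation was measured in 3 ways. The level of a region was its scaled pileup, the number of fragments stacked over the summit divided by a scaling factor of the library, and it was tested with limma over the 26934 regions with a peak in every library, with Benjamini-Hochberg adjustment over all of them and calls at an adjusted p under 0.05. The number of distal peaks of a gene, with summits outside every promoter (1000 bp upstream to 100 bp downstream of a start site), was compared between the 3 libraries of each condition with a two-sided exact permutation test, which cannot give a p below 0.1 with 3 against 3. A peak over a start site thus counts as distal where its summit lies more than 100 bp downstream. The regions of Met at +0.3 kb, Pdgfb at +0.6 kb and Ddr1 at +4.2 and +6.8 kb are of this kind. A region was called gained or lost when all 3 libraries of one condition and none of the other held a peak. Regions are named by the distance of the summit from the 5′-most start site of the gene, and distances upstream are negative. Because replicate numbers paired the libraries, the fit with the replicate number as a block is given where it changes a call. The 0h libraries serve both comparisons with 0h, and the 4h and 24h libraries serve as the controls of ERKi, so the comparisons are not independent of each other.

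With TGF-β, 3 regions of Pdgfa and 1 of Ddr1 rose at 4h, and at 24h 3 regions of Pdgfa, 3 of Met, 2 of Ddr1 and 1 of Pdgfb rose while 2 of Met, 1 of Axl and 1 of Fgfr3 fell. At 4h, 4 of the 35 member regions with a peak in every library were higher, 11.4%, against 3.47% of all such regions, and 0 were lower, against 0.167% of all. At 24h, 9 of 35 were higher, 25.7%, against 10.7% of all, and 4 of 35 were lower, 11.4%, against 6.55% of all. The median log2 change of the 35 regions was 0.13 at 4h and 0.19 at 24h, and that of all 26934 regions was -0.04 and -0.03. In the blocked fit 11 regions were higher and 1 lower at 4h, against 12% and 5.12% of all regions, and 14 were higher and 6 lower at 24h, against 18.7% and 17.2% of all. The count at 4h fell to 0 without 0h replicate 1, without 4h replicate 1 or without 4h replicate 3, to 1 without 0h replicate 2 and to 2 without 0h replicate 3, 4h replicate 2, 24h replicate 1, ERKi 4h replicates 1 or 2 or ERKi 24h replicates 1 or 2. The count of 13 at 24h fell to 5 without 24h replicate 1 and to 7 without 0h replicate 1.

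**Figure D1:**
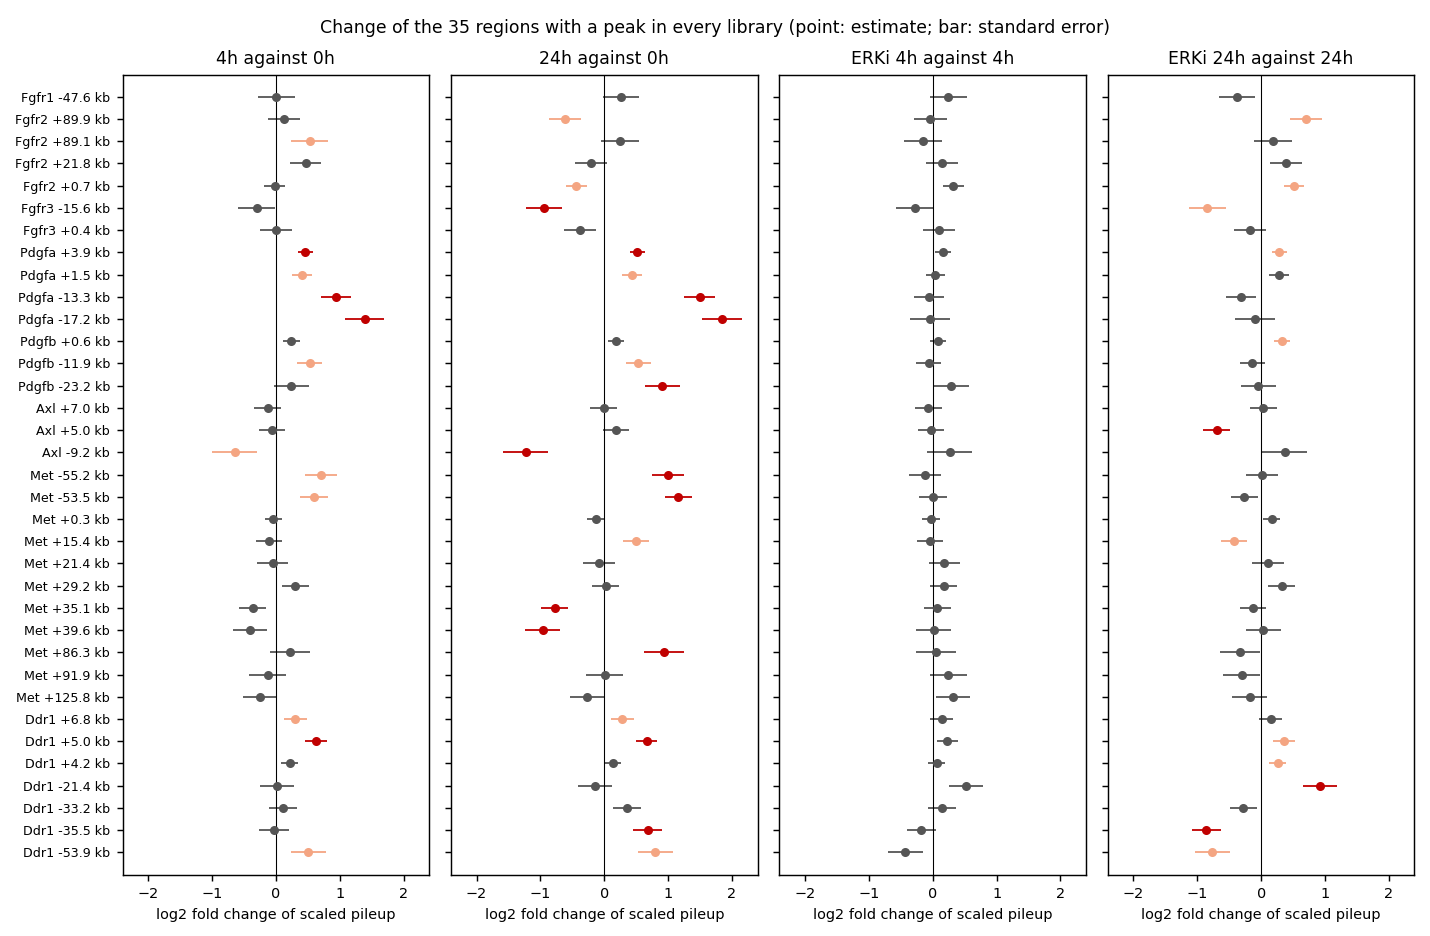
Log2 fold change of the scaled pileup (x axis, point, with its standard error as a bar) of the 35 regions with a peak in every library (y axis, named by gene and distance in kb) in the 4 comparisons. Dark red marks an adjusted p under 0.05 without a block, light orange only with the replicate number as a block, and grey neither; the upstream Pdgfa and Met regions lie to the right at 24h and every region is grey for ERKi 4h.

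Few of these regions were called with the ERK inhibitor in the fit without the block. At ERKi 4h 0 of 35 regions were higher or lower than at 4h, against 0.00743% and 0.223% of all regions, and 0 had an unadjusted p under 0.05 in limma. With the block 0 were called either, against 0.839% higher and 3.24% lower of all regions. At ERKi 24h 1 of 35 was higher than at 24h, 2.86%, against 2.99% of all, and 2 were lower, 5.71%, against 4.14% of all, which is near the background in both directions. With the block 7 were higher and 5 lower, against 13.3% and 14% of all regions. The count of 3 fell to 0 without 24h replicates 1 or 3 or ERKi 24h replicate 1, and to 1 without 4h replicate 1, ERKi 4h replicate 1 or ERKi 24h replicates 2 or 3. The difference between the effect of ERKi at 24h and at 4h was called in 0 of the 35 regions and 0 of all 26934 without the block, where 1 of the 35 and 5.38% of all had an unadjusted p under 0.05, and in 2 of the 35 and 1060 of all with it.

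By the number of distal peaks, 2 of the 10 genes at 4h and 4 of 10 at 24h had more in every treated library than in any 0h library, 20% and 40%, against 4.07% and 12.1% of the 14315 genes with a distal peak. Those genes were Pdgfrb and Pdgfa at 4h, and Pdgfra, Pdgfrb, Pdgfa and Axl at 24h. In the other direction 0 genes separated at either time, against 1.11% and 4.12% of all genes. At ERKi 4h 0 genes separated from 4h, against 1.36% of all genes upward and 0.992% downward. At ERKi 24h Ddr1 had more distal peaks than at 24h, against 4.04% of all genes, and Axl fewer, against 3% of all. Without 0h replicate 1 the counts became 3 genes higher and 2 lower at 4h and 4 higher and 2 lower at 24h. Compared within the 3 pairs of equal replicate number, 4 genes were higher in every pair at both times (Pdgfra, Pdgfrb, Pdgfa and Axl), Fgfr2 was lower in every pair at both times and Ddr1 was lower in every pair at 24h. The count within pairs was not made over all genes, so it has no background to be read against.

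**Figure D2:**
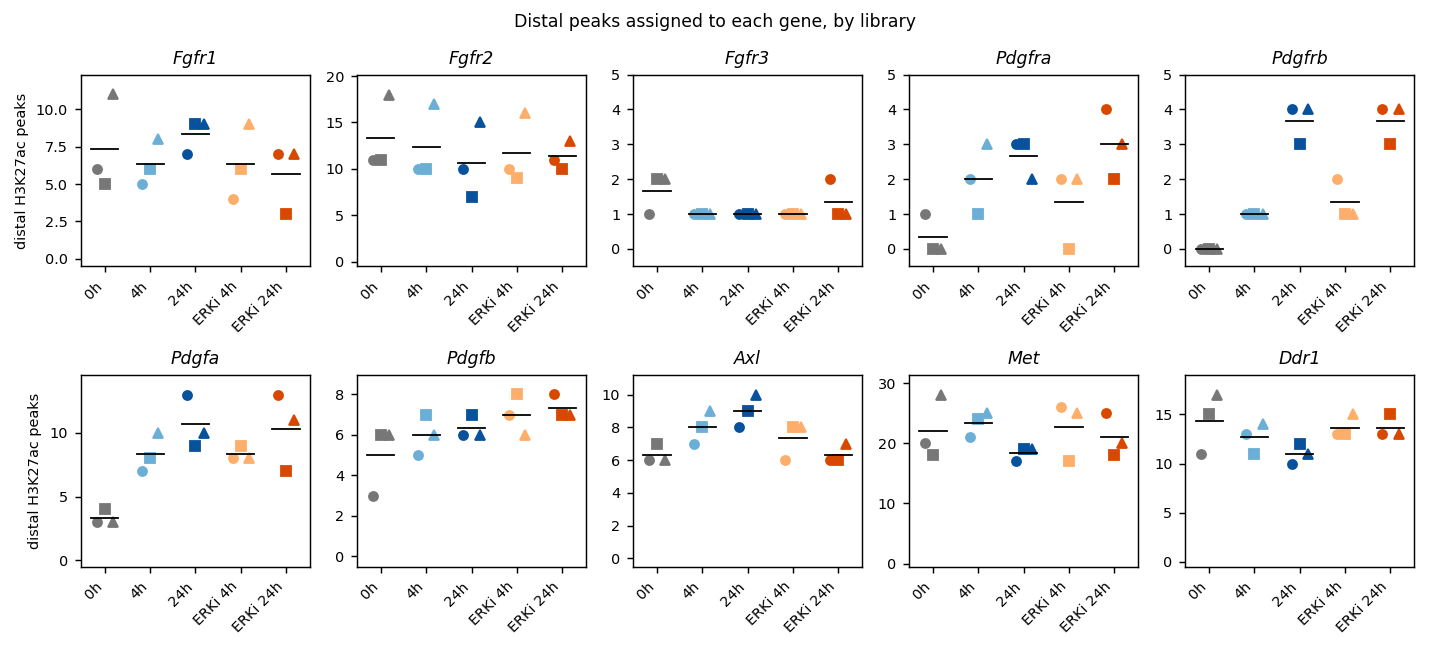
Number of distal H3K27ac peaks (y axis) assigned to each of the 10 genes in the 15 libraries, grouped by condition (x axis); circle, square and triangle are replicates 1, 2 and 3 and the line is the mean of the 3. Pdgfrb has 0 peaks in each 0h library and 3 or 4 in each 24h and ERKi 24h library, and Axl drops from 8 to 10 peaks at 24h to 6 or 7 at ERKi 24h.

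Among the 90 member regions with a peak in any 0h or 4h library, 2 were gained at 4h, 2.22%, against 1.65% of all regions, and 1 was lost, 1.11%, against 0.565%. At 24h 10 of 106 were gained, 9.43%, against 5.98% of all, and 1 was lost, 0.943%, against 2.52%. Of the 10 gains 5 lay upstream of Pdgfa, 3 in Pdgfrb, 1 in Pdgfra and 1 upstream of Fgfr1. At ERKi 4h 0 of 85 regions were gained or lost against 4h, where 0.316% and 0.449% of all regions were. At ERKi 24h 2 of 109 were gained against 24h, 1.83%, against 1.73% of all, and 1 was lost, 0.917%, against 1.41%.

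Fgfr1 encodes the FGF receptor typical of mesenchymal cells. Its gene lies on chromosome 8 (26624126 to 26686186, plus strand), and no library held a peak within 2500 bp of any of its start sites. All 13 of its regions were intergenic and upstream, from 17.7 to 84.3 kb away. Distal peaks numbered 6, 5 and 11 in the 3 libraries at 0h, 5, 6 and 8 at 4h, then 7, 9 and 9 at 24h, 4, 6 and 9 at ERKi 4h and 7, 3 and 7 at ERKi 24h, and these ranges overlap in every comparison. The region at -72.9 kb (26550441 to 26551515) held a peak in all 3 libraries at 24h, with scaled pileups of 22.6, 17.1 and 22.6 fragments, and in none of the other 12, so that it was gained at 24h and lost with ERKi. Because the region was found in no other library, its change has no measured level to be tested against. The region at -84.3 kb, named after its values were seen, measured 22.6, 27.4 and 48.3 fragments at 24h and held a peak in 1 ERKi 24h library, at 11. With the lowest pileup of its list standing for the 2 libraries without a peak, the change was -1.64 ± 0.35 on the log2 scale. Most of the ERKi 24h values behind it are stand-ins, so it is no test of a loss. The stronger region at -47.6 kb, the only one with a peak in every library, measured 115, 82.7 and 127 fragments at 0h, 149, 76.4 and 183 at 24h and 84.4, 96.5 and 116 at ERKi 24h. Its changes did not pass the test (log2 0.26 ± 0.29 SE, adjusted p = 0.654 at 24h, and -0.38 ± 0.29, adjusted p = 0.528 for ERKi 24h, limma).

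Fgfr2, the FGF receptor of epithelia, carried 27 regions, 4 of them with a peak in every library, and the most by number among the 10 genes. The gene is on chromosome 7 on the minus strand, and its annotated end at 140315033 is a remote start site without a member peak, so distances are counted from the main cluster of start sites. Its promoter region at +0.7 kb (137407959 to 137409781, with the summit in a UTR) measured 102, 83.8 and 87.7 fragments at 0h, 99.7, 84.6 and 85.4 at 4h, then 64.3, 66.2 and 70.9 at 24h, 112, 120 and 105 at ERKi 4h and 112, 87.5 and 89.9 at ERKi 24h. All 3 libraries at 24h were below all 6 at 0h and ERKi 24h, and those at ERKi 4h were above those at 4h (log2 0.32 ± 0.16, adjusted p = 0.966). The log2 change was -0.44 ± 0.16 at 24h (limma, adjusted p = 0.0736) and 0.51 ± 0.16 with ERKi at 24h (adjusted p = 0.0643), which missed the threshold, and with the block the adjusted p was 0.00674 and 0.00277. By percentile within its library the promoter stood at 74.8 ± 3.62 at 0h, at 64.7 ± 2.46 at 24h and at 78.3 ± 5.85 at ERKi 24h (mean ± SD, n = 3, exact permutation p = 0.1 for both comparisons, the smallest possible). Ranked by the authors' fold enrichment instead, it was 13.6 points higher at 24h and changed by -7.15 points with ERKi, the opposite direction in both comparisons.

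The distal peaks of Fgfr2 numbered 11, 11 and 18 at 0h, 10, 10 and 17 at 4h, then 10, 7 and 15 at 24h and 11, 10 and 13 at ERKi 24h, and these ranges overlap. Its intronic region at +29.5 kb, named after its values were seen, measured 25.5, 31.9 and 38.4 fragments at 0h, 21, 27.4 and 22 at 4h, and 11, 20.6 and 16.3 at ERKi 24h, with a peak in 1 library at 24h, at 15.4. With the lowest pileup of the list standing for the 2 libraries without a peak, its change at 24h was -1.40 ± 0.33 on the log2 scale. The change with ERKi was 0.38 ± 0.33. Most of the 24h values behind both changes are stand-ins, so neither is a test.

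Another intronic Fgfr2 region, at +89.9 kb (137319977 to 137320622), also named after its values were seen, had the order of the promoter region. It measured 78.6, 60.2 and 113 fragments at 0h, 47.8, 44.5 and 69.9 at 24h and 78.6, 78.5 and 102 at ERKi 24h. Each 24h library was below the ERKi 24h libraries, while 24h and 0h overlapped. Without the block neither change passed (limma, log2 -0.62 ± 0.25, adjusted p = 0.11 at 24h, and 0.70 ± 0.25, adjusted p = 0.111 for ERKi), and with it the adjusted p was 0.00162 and 0.000848. It was also 1 of the 2 regions in which the effect of ERKi differed between 24h and 4h with the block (log2 difference 0.73 ± 0.36, adjusted p = 0.047 with the block and 0.944 without).

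Fgfr3, another receptor of epithelial cells, carried 3 regions on chromosome 5. The region at -15.6 kb (34048413 to 34050330, intergenic) measured 52.4, 57.9 and 81.1 fragments at 0h, 42, 54.8 and 56.9 at 4h, then 23.5, 33.1 and 44.2 at 24h, 35.9, 37.1 and 54.8 at ERKi 4h and 13.2, 23.2 and 19.4 at ERKi 24h. It fell at 24h by 0.95 on the log2 scale (SE 0.29, limma adjusted p = 0.0283), all 3 libraries being below all at 0h. Its 24h call was lost without 0h replicate 2 (adjusted p = 0.0511), 0h replicate 3 (0.132), 24h replicate 1 (0.161) or 24h replicate 2 (0.051). All ERKi 24h libraries were below all 24h libraries as well (log2 -0.84 ± 0.29, adjusted p = 0.0881, and 0.000948 with the block). The promoter region at +0.4 kb ranged from 28.5 to 45.9 fragments at 0h and from 22.6 to 34.2 at 24h and did not pass (log2 -0.38 ± 0.25, adjusted p = 0.374).

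Pdgfra and Pdgfrb encode the receptors of the PDGF dimers and are classical genes of mesenchymal cells. Neither gene had a region with a peak in every library, and their promoters held a peak in 3 and 1 of the 15 libraries. For Pdgfra, distal peaks numbered 1, 0 and 0 at 0h, 2, 1 and 3 at 4h, then 3, 3 and 2 at 24h, 2, 0 and 2 at ERKi 4h and 4, 2 and 3 at ERKi 24h. The 24h libraries were all above the 0h libraries (2.67 ± 0.577 against 0.333 ± 0.577, SD, n = 3, exact permutation p = 0.1), and the ERKi 24h libraries overlapped them. The intronic Pdgfra region at +13.9 kb (chromosome 5, 75561859 to 75563294), whose sequence is printed above, was gained at 4h and 24h. No 0h library had a peak there, the 4h libraries measured 17.5, 17.9 and 19.3 fragments, the 24h libraries 46, 24 and 60.6, and the ERKi 24h libraries 49.2, 34.8 and 65.9, with 19.4 and 24.3 in 2 of the 3 ERKi 4h libraries.

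Pdgfrb had no peak at 0h at all. Its distal peaks numbered 0, 0 and 0 at 0h, 1, 1 and 1 at 4h, then 4, 3 and 4 at 24h, 2, 1 and 1 at ERKi 4h and 4, 3 and 4 at ERKi 24h. Both 4h and 24h separated from 0h (exact permutation p = 0.1 for each), and the counts at ERKi 24h equalled those at 24h library by library. A pair of neighbouring intronic regions on chromosome 18 at +10.0 kb (61214451 to 61215076) and +10.6 kb (61215163 to 61216416) held the strongest signal. At +10.6 kb the 24h libraries measured 90.3, 30.8 and 86.3 fragments and the ERKi 24h libraries 72, 46.3 and 90.7, against 22.3, 18.5 and 17.2 at ERKi 4h, 16.7 and 14.7 in 2 of the 3 libraries at 4h and no peak at 0h. Replicate 2 was the lowest of the 3 at 24h and at ERKi 24h. At +10.0 kb the 24h libraries measured 95.6, 25.1 and 87.4 fragments and those at ERKi 24h 71.2, 45.1 and 76.7, with 1 library at 4h and 1 at ERKi 4h holding a peak.

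The third gained Pdgfrb region, at +27.3 kb, measured 31.3, 17.1 and 33.9 fragments at 24h and held a peak in 2 of the 3 ERKi 24h libraries, at 14.7 and 16.3. At +10.0 and +10.6 kb the ranges at 24h and ERKi 24h overlapped.

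**Figure D3:**
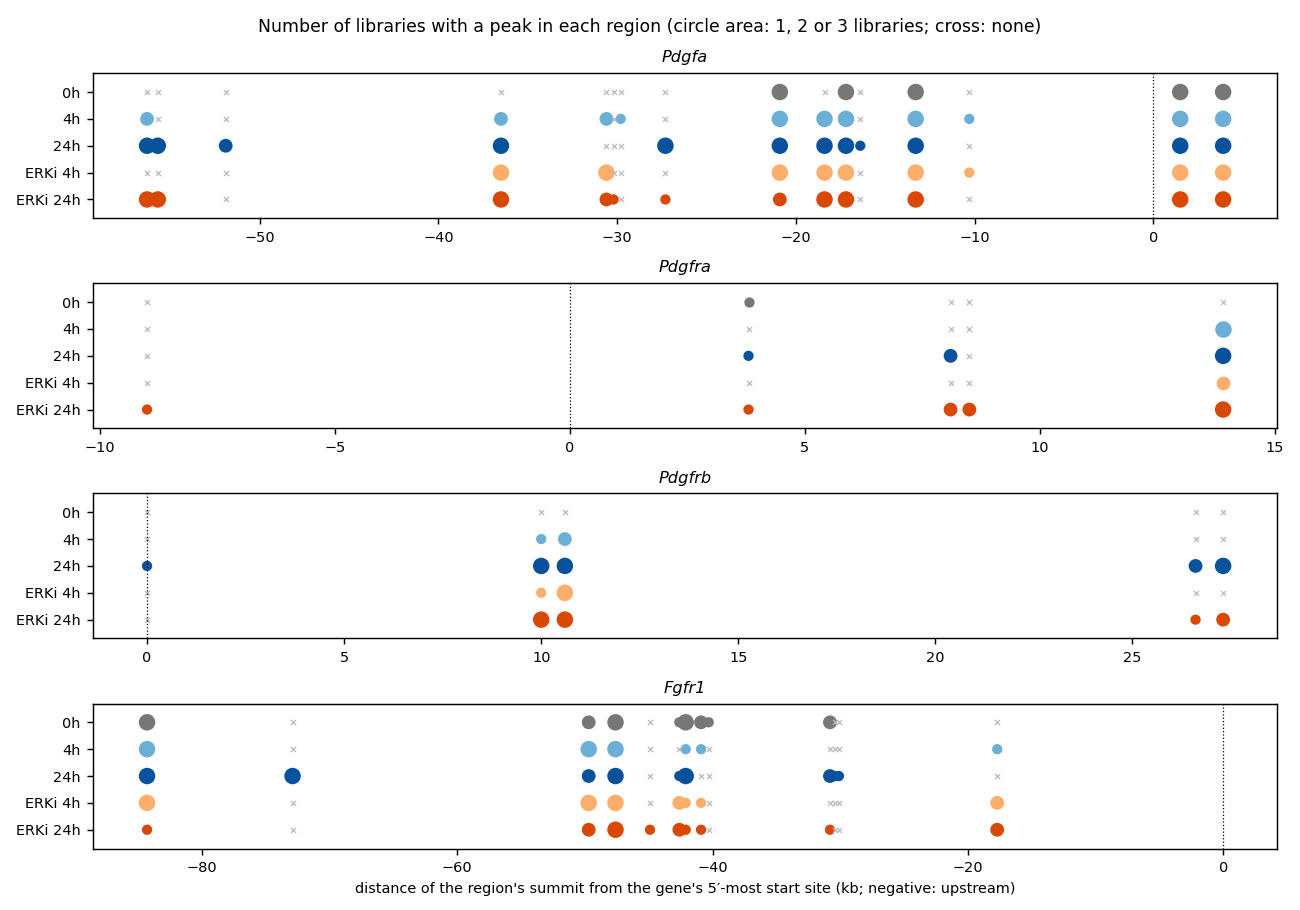
Regions of Pdgfa, Pdgfra, Pdgfrb and Fgfr1 by distance of the summit from the 5′-most start site (x axis, kb, upstream negative) and condition (y axis). The circle area gives the number of libraries with a peak, 1 to 3, and a cross stands for none; the 0h row holds only crosses for Pdgfrb, and the Fgfr1 region at -72.9 kb has circles at 24h only.

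Pdgfa, which encodes the PDGF-A chain, held the 3 largest log2 changes found among the 35 regions with a peak in every library, all of them upstream of the gene and all upward. Its distal peaks numbered 3, 4 and 3 at 0h, 7, 8 and 10 at 4h, then 13, 9 and 10 at 24h, 8, 9 and 8 at ERKi 4h and 13, 7 and 11 at ERKi 24h. All libraries at 4h and 24h exceeded all at 0h (8.33 ± 1.53 and 10.7 ± 2.08 against 3.33 ± 0.577, SD, n = 3, exact permutation p = 0.1 for each), and the peaks covered 2.66 kb at 0h, 5.2 kb at 4h and 5.14 kb at 24h. When start sites of all annotated genes, non-coding ones included, competed for the summits, the difference at 24h was -0.333 peaks. With the inhibitor the ranges overlapped at both times.

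The Pdgfa region at -17.2 kb (chromosome 5, 139490170 to 139491175, intergenic) measured 24, 48.4 and 62.5 fragments at 0h, 104, 94.2 and 133 at 4h, then 162, 106 and 195 at 24h, 99, 89 and 136 at ERKi 4h and 139, 107 and 184 at ERKi 24h. Every library with TGF-β was above every 0h library. The rise was 2.62-fold at 4h (log2 1.39 ± 0.31 SE, limma adjusted p = 0.0146) and 3.59-fold at 24h (log2 1.84 ± 0.31, adjusted p = 0.000414). The 4h call was lost without 0h replicate 1 (adjusted p = 0.1), 4h replicate 1 (0.0553) or 4h replicate 3 (0.0873), and the 24h call held without any one library. ERKi made no called difference at this region at either time.

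Just upstream, the Pdgfa region at -18.4 kb (139491398 to 139491882) had no peak in any 0h library and one in each of the other 12. It measured 80.5, 78.7 and 105 fragments at 4h, 157, 108 and 173 at 24h, 71.8, 51.9 and 101 at ERKi 4h and 101, 77.2 and 136 at ERKi 24h. At -13.3 kb (139485723 to 139487229) the values were 37.9, 49.6 and 73.4 at 0h, 94.5, 89.4 and 116 at 4h and 145, 121 and 176 at 24h. The Pdgfa region at -13.3 kb rose at 4h by 0.94 ± 0.24 on the log2 scale (limma adjusted p = 0.0346) and at 24h 2.82-fold (log2 SE 0.24, adjusted p = 0.000308). The 4h call was lost without 0h replicates 1 (0.219) or 2 (0.115) or 4h replicates 1 (0.0965), 2 (0.0512) or 3 (0.168), and the 24h call in no case.

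In the Pdgfa gene itself, the region at +3.9 kb (139468644 to 139471266), near an internal start site, measured 115, 113 and 115 fragments at 0h, 167, 161 and 145 at 4h and 172, 159 and 160 at 24h. It rose by 0.46 ± 0.12 (limma, adjusted p = 0.039) and 0.52 ± 0.12 (adjusted p = 0.00562) on the log2 scale, the smallest standard error among the called regions named here. Its 4h call held only without 24h replicates 2 or 3, ERKi 4h replicate 3 or ERKi 24h replicate 3, with adjusted p-values of 0.0384 to 0.184 over the 15 omissions, and its 24h call held in all. With ERKi at 24h the Pdgfa region measured 210, 198 and 189, above all 24h libraries (log2 0.28 ± 0.12, adjusted p = 0.187, and 0.0334 with the block). The promoter region of Pdgfa at +1.5 kb measured 84.4, 87.4 and 84.4 at 0h, 107, 120 and 114 at 4h and 113, 119 and 115 at 24h (log2 0.41 ± 0.15 at 4h, adjusted p = 0.198, and 0.0126 with the block, and 0.44 ± 0.15 at 24h, adjusted p = 0.0599, and 0.00344 with the block). It ranged from 112 to 122 at ERKi 4h and from 120 to 178 at ERKi 24h, above all 24h libraries. The promoter percentile was 7.53 points higher at ERKi 24h than at 24h, without overlap (exact permutation p = 0.1, the smallest possible). Farther upstream, 4 other regions were gained at 24h, at -27.3, -36.5, -55.7 and -56.3 kb, all in introns of the neighbouring gene Prkar1b. The first of these held a peak in 1 of the ERKi 24h libraries and the other 3 in all of them. At -55.7 kb the 24h libraries measured 36.5, 43.4 and 32.9 fragments and the ERKi 24h libraries 23.5, 20.6 and 17.8, without overlap. The region at -20.9 kb, in a UTR of Prkar1b and named after its values were seen, measured 24, 33.1 and 48.2 fragments at 0h and 102, 73 and 126 at 24h. In 2 of the ERKi 24h libraries it measured 49.9 and 56.6. With the lowest pileup of its list standing for the library without a peak, the log2 change was 1.54 ± 0.45 at 24h. This error comes from the fit with stand-ins, and the region was picked by its values, so the change is no test of a rise. With ERKi the log2 change was -1.56 ± 0.45, a value that leans on the stand-in and is no test of a loss.

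Pdgfb, which encodes the PDGF-B chain, carried 6 regions on chromosome 15, 3 of them shared by all libraries. The region at -23.2 kb (79867523 to 79868942) measured 38.6, 43.7 and 59.2 fragments at 0h, 39.4, 47.7 and 87.2 at 4h, then 78.2, 75.3 and 111 at 24h and 69.8, 79.8 and 106 at ERKi 24h. It rose at 24h by 0.90 ± 0.27 on the log2 scale (limma, adjusted p = 0.0285), with no overlap with 0h, and the call was lost without 0h replicate 1 (0.124), 0h replicate 2 (0.0802), 24h replicate 1 (0.0558) or 24h replicate 3 (0.123). The strong region at +0.6 kb, over the start of the Pdgfb gene, measured 283, 224 and 251 at 0h and 309, 248 and 307 at 24h (log2 0.19 ± 0.13, adjusted p = 0.4). At ERKi 24h it measured 381, 358 and 342, above all 24h libraries (log2 0.33 ± 0.13, adjusted p = 0.142, and 0.0144 with the block). The widest Pdgfb region, at -11.9 kb, measured 179, 163 and 243 at 0h, 262, 254 and 321 at 4h and 294, 230 and 317 at 24h. Its changes passed only with the block (log2 0.53 ± 0.20 at each time, adjusted p = 0.202 and 0.0779 without it, and 0.00023 and 7.37e-05 with it).

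**Figure D4:**
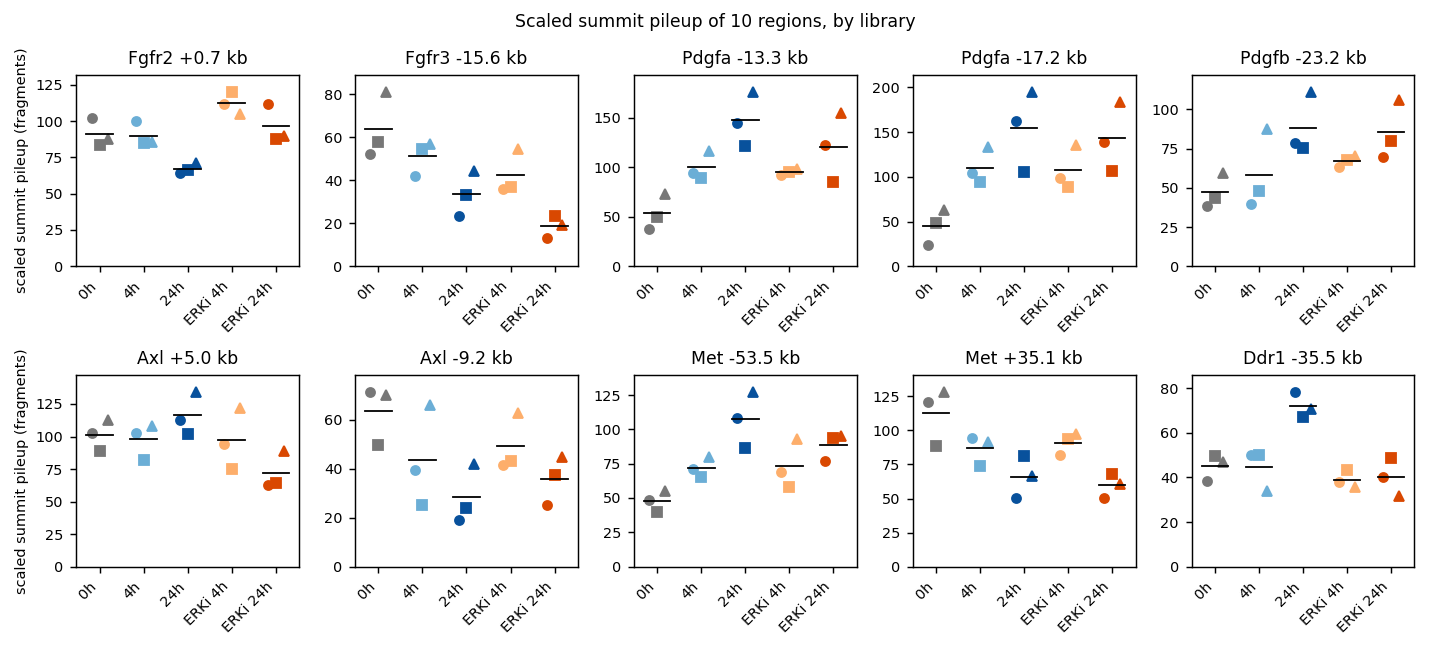
Scaled summit pileup in fragments (y axis) of 10 regions in the 15 libraries, grouped by condition (x axis); circle, square and triangle are replicates 1, 2 and 3 and the line is the mean. Pdgfa -17.2 kb rises from 24 to 62.5 fragments at 0h to 106 to 195 at 24h, and Axl +5.0 kb is lowest at ERKi 24h, between 62.4 and 89.1.

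Axl encodes the receptor of GAS6 and protein S and is often high in mesenchymal and drug-resistant cells. No Axl promoter peak was found between 1000 bp upstream and 100 bp downstream of a start site, and the 9 regions of the gene on chromosome 7 ran from 21.9 kb downstream to 9.2 kb upstream of its 5′ end. Distal peaks numbered 6, 7 and 6 at 0h, 7, 8 and 9 at 4h, then 8, 9 and 10 at 24h, 6, 8 and 8 at ERKi 4h and 6, 6 and 7 at ERKi 24h. The 24h libraries were above both 0h and ERKi 24h (9 ± 1 against 6.33 ± 0.577 in each, SD, n = 3, exact permutation p = 0.1 for each). The same peaks covered less sequence at 24h, 4.08 ± 0.687 kb, than at 0h, 5.34 ± 1.38 kb, and 4.51 ± 1.02 kb at ERKi 24h, and when only peaks with a −log10 q of at least 10 were counted the difference at 24h was -1.67 peaks.

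The intronic Axl region at +5.0 kb (26567856 to 26569468), shown above, measured 103, 88.6 and 113 fragments at 0h, 103, 82.2 and 108 at 4h, then 113, 102 and 134 at 24h, 94.2, 75.4 and 122 at ERKi 4h and 62.4, 64.4 and 89.1 at ERKi 24h. Its level did not pass a test with TGF-β alone, and it fell with ERKi at 24h by 0.70 ± 0.20 on the log2 scale (limma adjusted p = 0.0475), to 0.616 of the level at 24h. The call held only without 4h replicates 2 or 3, ERKi 4h replicates 2 or 3 or ERKi 24h replicate 3 (adjusted p 0.0342 to 0.156 over the 15 omissions), and the blocked adjusted p was 8.28e-05. The effect of ERKi differed between 24h and 4h with the block (log2 difference -0.67 ± 0.29, adjusted p = 0.0247) and not without it (0.894). When regions within 1000 bp were merged, this Axl region joined the stronger one at +7.0 kb and the change was 0.029.

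The Axl region at +7.0 kb measured 157, 136 and 183 at 0h, 136, 153 and 185 at 24h and 135, 143 and 212 at ERKi 24h, and its pileup passed no test in the 4 comparisons (limma, adjusted p from 0.891 to 1), while its fold enrichment, described below, was higher with ERKi at 24h (log2 0.51, adjusted p = 0.035). The Axl region at -9.2 kb (26582460 to 26585233) went down. It measured 71.3, 49.6 and 70.1 at 0h, 39.4, 25 and 66.1 at 4h, then 19.1, 24 and 42.1 at 24h and 25, 37.3 and 45 at ERKi 24h, and it fell at 24h by 1.23 ± 0.35 on the log2 scale (limma, adjusted p = 0.0208). At 4h the change was -0.64 ± 0.35 (adjusted p = 0.472, and 0.0382 with the block). The 24h call was lost without 0h replicates 1 (0.0822) or 3 (0.0702) or 24h replicates 1 (0.12) or 2 (0.0558). The upstream Axl region thus fell with TGF-β and the one at +5.0 kb with the inhibitor, while the pileup at +7.0 kb passed neither test.

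Met, the receptor of hepatocyte growth factor, had the most peaks of the 10 genes, 332 of 1312, and 25 regions on chromosome 6, 11 of them shared by all libraries. The region over its start, with the summit at +0.3 kb, measured 151, 141 and 152 fragments at 0h, 151, 124 and 131 at 24h and 137, 152 and 166 at ERKi 24h, and these ranges overlap (log2 -0.13 ± 0.14 at 24h, limma adjusted p = 0.621). The number of distal peaks ranged from 18 to 28 at 0h, 21 to 25 at 4h, 17 to 19 at 24h, 17 to 26 at ERKi 4h and 18 to 25 at ERKi 24h, and the ranges overlap in each of the 4 comparisons. A Met promoter peak was found in 2 libraries at 0h, 3 at 4h, 3 at 24h, 1 at ERKi 4h and 1 at ERKi 24h. In the other libraries the peak over the start counted as distal.

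Of the Met regions called at 24h, the 2 upstream ones rose, and of the 3 intronic ones 2 fell and 1 rose. At -53.5 kb (17359703 to 17360998, intergenic) Met measured 48.8, 40.1 and 54.8 fragments at 0h, 70.8, 65.6 and 79.9 at 4h, then 108, 86.7 and 127 at 24h and 77.1, 94 and 95.3 at ERKi 24h. The rise at 24h was 2.23-fold (log2 1.16 ± 0.21, limma adjusted p = 0.000933) and held without any one library. The neighbouring Met region at -55.2 kb (17358341 to 17359193) went from 56.8, 67.3 and 82.2 to 131, 97 and 194 (log2 0.99 ± 0.25, adjusted p = 0.00919, and 0.0543 without 0h replicate 1 and 0.0569 without 24h replicate 3). At 4h both missed the threshold without the block (adjusted p = 0.169 and 0.162) and passed it with the block (0.00325 and 0.000234).

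In the introns of Met the region at +35.1 kb (17447020 to 17449228) went from 121, 88.6 and 128 fragments at 0h to 50.4, 81 and 66.8 at 24h (log2 -0.78 ± 0.21, limma adjusted p = 0.0149). This call was lost without 0h replicates 1 (0.0669) or 3 (0.0726) or 24h replicate 1 (0.0989). A pair of further Met regions was named after their values were seen. The one at +39.6 kb fell at 24h by 0.96 ± 0.27 (adjusted p = 0.0187, lost without 0h replicate 3 at 0.093 or 24h replicate 1 at 0.116), and the one at +86.3 kb rose by 0.93 ± 0.31 (adjusted p = 0.0473). The latter was lost without 0h replicates 1 or 2, 4h replicate 1, 24h replicates 1 or 3, ERKi 4h replicate 1 or ERKi 24h replicate 1 (0.0571 to 0.175). A small Met region at +37.3 kb held a peak in all ERKi 24h libraries, at 52.9, 74.7 and 62.8 fragments, in 2 ERKi 4h libraries and in none of the 9 libraries without the inhibitor. It lay between the Met regions at +35.1 and +38.2 kb. The latter, named after its values were seen, averaged 102 fragments at 0h, 72 at 4h and 93.4 at ERKi 24h. Whether the small region is separate from these neighbours was not tested.

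Ddr1, a collagen receptor of epithelia, carried 19 regions on chromosome 17, 7 of them with a peak in every library. Its number of distal peaks was 11, 15 and 17 at 0h, 13, 11 and 14 at 4h, then 10, 12 and 11 at 24h, 13, 13 and 15 at ERKi 4h and 13, 15 and 13 at ERKi 24h. ERKi 24h exceeded 24h without overlap (13.7 ± 1.15 against 11 ± 1, SD, n = 3, exact permutation p = 0.1), although the bases covered did overlap, 7.34 ± 1.31 kb against 6.89 ± 0.439 kb. Among the promoter regions of Ddr1, the one at -0.4 kb held a peak in 12 libraries, measuring 75, 61.4 and 76.7 fragments at 0h and 54.7, 57.1 and 70.9 at 24h. The one at +0.1 kb held a peak in 3 libraries and the one at +6.0 kb in 14. At +6.0 kb 2 libraries at 0h measured 94.6 and 95.3. The range there was 95.4 to 167 at 4h, 91.3 to 169 at 24h, 114 to 200 at ERKi 4h and 148 to 203 at ERKi 24h. The promoter percentile of Ddr1 was 4.58 points higher at 4h than at 0h, without overlap (exact permutation p = 0.1), and 2.29 points higher at 24h (p = 0.5). The region at +4.2 kb, beside another start site, held a peak in all libraries, and its changes passed only with the block at ERKi 24h (log2 0.26 ± 0.13, limma adjusted p = 0.289, and 0.0285 with the block).

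The intronic Ddr1 region at +5.0 kb (35836124 to 35836842) measured 91, 80.3 and 92.1 fragments at 0h, 160, 107 and 146 at 4h, then 161, 110 and 151 at 24h and 188, 166 and 180 at ERKi 24h. It rose at 4h by 0.63 ± 0.17 on the log2 scale (limma, adjusted p = 0.0479) and at 24h by 0.66 ± 0.17 (adjusted p = 0.0112). The 4h call held only without 4h replicate 2 or 24h replicates 2 or 3 (0.0144 to 0.258 over the 15 omissions), and the 24h call was lost only without 24h replicate 1 (0.0737). With the block the Ddr1 region was also higher with ERKi at 24h (log2 0.36 ± 0.17, adjusted p = 0.0177, and 0.25 without the block).

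The Ddr1 region at -35.5 kb (35876321 to 35877854, intergenic) was high at 24h alone. It measured 38.6, 49.6 and 47.1 fragments at 0h, 49.9, 50.1 and 34 at 4h, then 78.2, 67.3 and 70.9 at 24h, 37.9, 43.2 and 35.5 at ERKi 4h and 40.4, 48.9 and 31.8 at ERKi 24h. The log2 change was 0.68 ± 0.23 at 24h (limma, adjusted p = 0.0463) and -0.86 ± 0.23 with ERKi at 24h (adjusted p = 0.0289), both measured against the same 24h libraries. The first call held only without 4h replicate 3 or ERKi 24h replicates 2 or 3 (0.0369 to 0.173 over the 15 omissions), and the second was lost without 24h replicates 1 (0.105) or 3 (0.0586) or ERKi 24h replicates 1 (0.0708) or 3 (0.136).

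In the other direction, the Ddr1 region at -21.4 kb (35862193 to 35863528) measured 32.1, 30.8 and 25.7 fragments at 24h and 49.2, 68.2 and 51.9 at ERKi 24h, a rise of 0.93 ± 0.26 on the log2 scale (limma, adjusted p = 0.0418). The call held only without 1 of the 3 libraries at 0h, 4h replicates 2 or 3 or ERKi 4h replicate 3 (0.0276 to 0.151 over the 15 omissions). A pair of weak Ddr1 regions switched. The one at -6.0 kb measured 21.1, 23.6 and 36.2 fragments at 0h and held no peak at 4h, 24h or ERKi 24h, with 21.4 and 31.4 in 2 ERKi 4h libraries. The one at -17.3 kb measured 21.3, 27 and 31.8 at ERKi 24h and held no peak at 24h, though 2 of the 3 libraries at 0h held one.

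The peak lists also give a fold enrichment, the pileup divided by the background that the peak caller expected at the same place, and by this measure the changes differed. Of the 20 calls in the 35 regions, 0 passed with the fold enrichment as the level and 10 had the opposite sign. The fold enrichment instead called 3 other changes, all upward and named after their values were seen. These were Fgfr2 +89.1 kb at 24h (log2 0.75, limma adjusted p = 0.0171) and, with ERKi at 24h, Axl +7.0 kb, given above, and Met +29.2 kb (0.46, adjusted p = 0.0372), so that the 1 higher and 2 lower regions of that comparison became 2 higher and 0 lower. The share of all regions called by the fold enrichment is not given here, so these counts have no background to be read against. The background implied by the lists moved in the same direction as the pileup in 20 of 20. It was computed from that pileup and the fold enrichment and is no separate measurement. Where the fold enrichment had the opposite sign, this direction follows by arithmetic. At the Pdgfa region at -17.2 kb the pileup changed by 1.84 on the log2 scale at 24h, the background by 2.18 and the fold enrichment by -0.28. At the Axl region at -9.2 kb the pileup changed by -1.23, the background by -1.37 and the fold enrichment by 0.02. How far the background follows the width or height of the acetylated domain was not tested.

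A list of 51 further genes of receptor tyrosine kinase signalling, outside the ErbB and Eph families, held 94 regions with a peak in every library, near 31 of the genes. At 4h 1 region was higher, 1.06%, against 3.47% of all regions, and 0 were lower, against 0.167%. With the block 14 were higher and 10 lower, against 12% and 5.12% of all regions. At 24h 13 were higher, 13.8%, against 10.7% of all, and 14 lower, 14.9%, against 6.55%, with a median log2 change of -0.04. With the block 19 were higher and 26 lower, against 18.7% and 17.2% of all regions. At ERKi 4h 0 were higher or lower than at 4h (limma), against 0.00743% and 0.223% of all regions. With the block 1 was higher and 3 lower, against 0.839% and 3.24% of all. At ERKi 24h 3 were higher and 3 lower than at 24h, 3.19% each, against 2.99% and 4.14% of all. With the block 23 were higher and 13 lower, against 13.3% and 14% of all regions. At 4h the one called lay 50.3 kb upstream of Ror1, a receptor that binds WNT5A (log2 1.22 ± 0.32, limma adjusted p = 0.0389).

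Among the regions with the smallest adjusted p at 24h, one 12.0 kb downstream of the start of Fgf2, a ligand of FGFR1, rose by 2.43 ± 0.27 on the log2 scale (limma, adjusted p = 1.19e-05) and was lower with ERKi (log2 -1.22 ± 0.27, adjusted p = 0.0104). The same Ror1 region rose by 1.90 ± 0.32 at 24h (adjusted p = 0.000429). A region 58.3 kb from the start of Vegfa, the vascular growth factor, fell by 1.80 ± 0.29 at 24h (adjusted p = 0.000308). At Fgf18, another FGF ligand, the region 4.2 kb from the start fell by 1.42 ± 0.24 at 24h (log2 -1.42, adjusted p = 0.000525), and the one at its start was higher with ERKi (log2 0.95 ± 0.17, adjusted p = 0.00212). Flt1, a VEGF receptor, held regions that moved both ways with ERKi at 24h, one 61.4 kb upstream (log2 -1.89 ± 0.26, adjusted p = 0.000469) and one 5.5 kb downstream of the start (log2 1.57 ± 0.32, adjusted p = 0.00636). A region 3.7 kb upstream of Fgf7, a ligand of the epithelial form of FGFR2, was lower with ERKi (log2 -0.67 ± 0.15, adjusted p = 0.0109). By the fold enrichment, only the Ror1 change at 24h passed among the changes of these further genes named here (log2 1.06, limma adjusted p = 0.0018). At Fgf2 the adjusted p was 0.673 at 24h and 0.865 with ERKi. The sign was opposite at Fgf18 4.2 kb from the start at 24h (0.23), at its start with ERKi (-0.013) and at Fgf7 with ERKi (0.387).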

How the data were processed

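H3K27ac ChIP-seq peak lists of 15 libraries, 3 in each of 5 conditions, were used. The authors aligned reads to mm9 with bowtie 0.12.9, handled them with samtools 0.1.19-44428cd and called peaks per library with MACS2 2.0.10.20120913, per the study's methods and the submitters' processing notes. The deposited lists give the fold enrichment over the local background, a linear ratio, and −log10 p-values and −log10 q-values of each peak. From the fold enrichment and −log10 p the summit pileup was solved (25 peaks were not solved within 0.005) and divided by a scaling factor of the library, 0.777 to 1.37. Gene positions and sequences are those of the mm9 assembly.

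Log2 scaled pileups were tested with limma 3.58.1 in R 4.3.3, all 5 conditions in one fit with a trend, without a block. Regions with a peak in at least 3 libraries were fitted apart, with the lowest pileup of a list standing for a missing peak. Other steps used Python 3.11.15, numpy 2.4.6, pandas 2.3.3 and scipy 1.17.1. Scripts were tested on simulated data. Same-numbered libraries deviated together in 30 of 30 pairs (correlation at least 0.336, mean 0.581, against -0.284 for other numbers), so the numbers were taken to pair the libraries. The alternatives were the measure, scaling, filters, merging, assignment, block and each library left out.

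The members, lists and tests were chosen with earlier results of these data known. Named were all 10 genes, their called regions (at most 3 a gene, by the smallest adjusted p), promoter regions, regions with a peak in all 3 libraries of one condition and none of another, and at most 4 related genes a comparison. Fgfr1 at -47.6 kb, Pdgfb at +0.6 and -11.9 kb, Axl at +7.0 kb, Met at +0.3 kb and Ddr1 at +4.2 kb were added after their values were seen. The 10 RNA-seq and 3 input samples and the score column were not used here. Since read totals are not in the peak lists, counting intervals could not be computed.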

Additional observations from a re-analysis of the deposited data

How the results depend on the processing

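Of the 20 calls in member regions, 4 held without any one library (Met at -53.5 kb and Pdgfa at +3.9, -13.3 and -17.2 kb, all at 24h), and 0 of the 20 changed sign when a library was left out. The replicate block kept all 20. It also called Fgfr2 +89.1 kb at 4h (limma adjusted p = 0.491 without and 0.00948 with it). Ddr1 +6.8 kb was higher with the block at 4h (adjusted p = 0.532 without and 0.03 with it) and at 24h (0.368 and 0.0258). Beyond these and the changes given above, the block changed no other call of a named region. Leaving out a library gave 0 to 4 called member regions at 4h, 5 to 15 at 24h, 0 to 0 at ERKi 4h, 0 to 3 at ERKi 24h and 0 to 0 for the difference of the ERKi effects, and 3 to 5, 4 to 6, 0 to 0 and 2 to 3 genes with separate distal numbers.

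The 4 regions called at 4h became 0 with the fold enrichment, 1 of 16 with a −log10 q of at least 10, 12 with the replicate block, 2 with only the 6 libraries compared, 2 without a trend and 1 of 26 when start sites of all annotated genes competed. The 13 at 24h became 1 with the fold enrichment, 29 of 83 with a peak in at least 3 libraries, 3 with the stricter q, 20 with the block and 8 with all annotated start sites. The 3 at ERKi 24h became 5 of 83 with a peak in at least 3 libraries, 0 with the stricter q, 12 with the block and 0 with 6 libraries, and the 0 for the difference of the ERKi effects became 2 with the block. The 2 genes with separate distal numbers at 4h became 0 with the 20000 strongest peaks, 1 where a peak needed a fold enrichment of 5, 1 with all annotated start sites and 5 with the replicate block. The 4 at 24h became 2, and the 0 at ERKi 4h became 1, with the stricter q. The 2 at ERKi 24h became 0 with the stricter q, 0 with the 20000 strongest peaks, 1 where a peak needed that fold enrichment and 1 by bases covered. The fit with a peak in at least 3 libraries takes in regions that passed only through the condition where they had a peak, so its counts support nothing. The cause of these changes was not tested, beyond the fewer regions or libraries that some settings leave. Apart from the block on regions, given above, no share of all regions or genes stands beside the counts under other settings. Those counts are therefore no result about the members.

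With the fold enrichment the sign turned at Axl -9.2 kb (0.023), Ddr1 -35.5 kb (-0.0022), Fgfr3 -15.6 kb (0.17) and Met -55.2 kb (-0.1) at 24h, and at 4h and 24h at Pdgfa +3.9 kb (-0.045 and -0.22), -13.3 kb (-0.29 and -0.31) and -17.2 kb (-0.056 and -0.28), and for the Fgfr2 promoter percentile (13.6 at 24h and -7.15 with ERKi). Merging within 1000 bp gave 0.029 at Axl +5.0 kb with ERKi at 24h. The distal difference at 24h became -0.333 for Pdgfa with all annotated start sites, and for Axl -1.67 with the stricter q and -0.333 with the 20000 strongest peaks. The depth of the libraries is unknown, so a missing peak in a list cannot be read as absent acetylation.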
